A study of Mus musculus with 18 samples.

Results

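J774 macrophages were exposed for 24 h to talc together with estradiol, or to estradiol alone, and the difference between these groups is described across all genes measured. The talc plus estradiol group and the estradiol group held 3 arrays each, chosen by the samples' descriptions, which makes 6 of the 18 arrays of the study. In the talc plus estradiol group, cells in 24-well plates received talc at 10 µg per well and estradiol (17-β estradiol) at 2 µg/mL, and the estradiol group received that dose of hormone without particles. Both groups therefore share the hormone and differ in the talc. Where other groups are used, they are talc without estradiol (3 arrays) against vehicle (3 arrays), and 10 µg per well of titanium dioxide (TiO2) with estradiol (3 arrays) against estradiol. All cells were of J774, an established mouse macrophage line grown in medium free of phenol red, so that every group rests on a single line.

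Total RNA was measured on Affymetrix arrays, and a value below is the log2 of the deposited intensity, averaged over the probe sets of a gene. Such values were available for 23102 genes. The 6 arrays compared had median intensities between 46.5 and 47.4 and upper quartiles between 237.9 and 245.8, within the range of 45.6 to 48.0 and 222.2 to 249.1 of all 18 arrays. With 3 arrays a group, the number of arrays limits the precision, and the median standard error of a difference was 0.151 log2 units. Nothing in the labels tells whether arrays of the same group stem from different cultures, and the p-values therefore describe the spread among these arrays, possibly a technical one. Array numbers run through the groups in order, and an effect of such an order cannot be told apart from group.

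Talc is a sheet silicate of magnesium that macrophages take up by phagocytosis, and TiO2 is another mineral particle that the study used beside it. Particles that reach phagosomes can trigger signaling through MAP kinases and NF-kB, which first switches on immediate early factors such as Fos and then chemokines, cytokines and prostaglandin synthesis. Macrophage lines divide in culture, and their cell cycle genes are under the control of E2F factors and of the MuvB complexes that bind the cell cycle homology region. Estradiol acts through the nuclear receptors Esr1 and Esr2 and through the membrane receptor Gper1.

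The RNA carried the marks of macrophages in both groups. The 27 measured macrophage identity genes had a median level at percentile 95.2 of all genes. Csf1r, the receptor for macrophage colony-stimulating factor, read 10.87, 10.72 and 10.92 in the talc plus estradiol arrays, against 10.84, 10.83 and 10.98 in the estradiol arrays. Cd68, a lysosomal glycoprotein of macrophages, read 12.90, 12.80 and 12.85 in the talc plus estradiol arrays, against 12.71, 12.74 and 12.75 in the estradiol arrays. The groups overlapped for Csf1r, and the change of neither gene passed the test. Of 56 measured markers of fibroblasts, epithelium, lymphocytes, granulocytes and endothelium, 1 changed and 9 of 12, 9 of 12, 10 of 10, 12 of 12 and 8 of 10 of these lists lay below the median level of all genes. The one was Pdgfra, a growth factor receptor of fibroblasts, with 4.64, 4.14 and 4.48 in the talc plus estradiol arrays, against 5.18, 5.48 and 5.27 in the estradiol arrays and a log2 change of -0.89 ± 0.16 (SE, adjusted p = 0.0021), while its brightest probe set changed by 0.27. The mean over the fibroblast list was 4.02 to 4.17 in the talc plus estradiol arrays and 4.15 to 4.21 in the estradiol arrays, and no marker was at 0.

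The estrogen receptors themselves did not pass the test, and lay at percentiles 60.6 (Esr1), 45.1 (Esr2) and 33.5 (Gper1) of all genes by level. Esr1 read 5.56, 5.63 and 5.59 in the talc plus estradiol arrays, against 5.89, 6.07 and 5.81 in the estradiol arrays. All 3 talc plus estradiol arrays lay below the estradiol arrays, and the log2 change of -0.33 ± 0.15 (SE, adjusted p = 0.24) missed the threshold. Esr2 changed by -0.11 and Gper1 by 0.26, with adjusted p of 0.76 and 0.21. None of the 20 measured receptors and coregulators of estrogen signaling was called, where 7.13% of all genes were. Among 23 genes of estradiol metabolism and the aryl hydrocarbon receptor, 1 rose and 1 fell. Arnt, the partner of the aryl hydrocarbon receptor, rose by 0.37, and the glucuronosyltransferase Ugt1a7c, whose gene shares exons with its relatives, fell with a log2 change of -0.54. Cyp1b1, which hydroxylates estradiol, read 3.69, 3.81 and 3.29 in the talc plus estradiol arrays, against 3.45, 3.58 and 3.51 in the estradiol arrays, and the groups overlapped.

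Talc in the presence of estradiol changed 1647 genes, of which 953 rose and 694 fell. These are genes with an adjusted p under 0.05 in limma over all 23102 genes. They made up 7.13% of genes, 4.13% higher and 3% lower. Counts in the gene lists below are to be read beside these shares, and beside the larger share among bright genes. Changes were mostly modest: the median called rise was 0.53 log2 units and the median called fall -0.57. A change of at least 2-fold was called for 43 genes that rose (0.186% of all) and 31 that fell (0.134%). The median change over all genes was -0.0037. The count moved when arrays were left out, and was 904 without talc plus estradiol replicate 3, 1034 without replicate 1 of that group, and 1050 and 1010 without estradiol replicates 1 and 2. The share of rises moved with the processing, with 800 higher and 785 lower after quantile normalization, 1245 and 538 with array medians subtracted, and 359 and 497 with the brightest probe set of each gene. For 1645 of the 1647 called genes the 3 talc plus estradiol arrays lay entirely above or entirely below the 3 estradiol arrays. Over all genes, arrays apart in the same sense were found for 14.2% in the higher and 12% in the lower direction. The call and this separation use the same values, and the rule for the largest changes also required the separation. Arrays that are apart are therefore no further support for the call of any gene named below.

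Calls were concentrated among bright genes. In the lowest quartile of genes by mean level 0.866% were called, in the next 1.13%, then 9.63%, and in the highest quartile 16.9%. A further 17 genes changed at least 2-fold without being called, 11 of them measured by 1 probe set and 14 of them below the median level. Protein-coding genes were called in 8.06% of 19719 cases, with 930 rises and 659 falls. Long noncoding RNAs were called in 1.99% of 2166 cases, with 20 rises and 23 falls, and of 498 microRNA genes 5 were called, all lower. Probe sets of the called 2-fold genes mostly moved together, since 48 of the 74 had every probe set on the same side and only 2 had fewer than 80% of them there. These genes were chosen by the mean of the same probe sets, which favours such agreement, and the share among other genes was not counted.

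**Figure D1:**
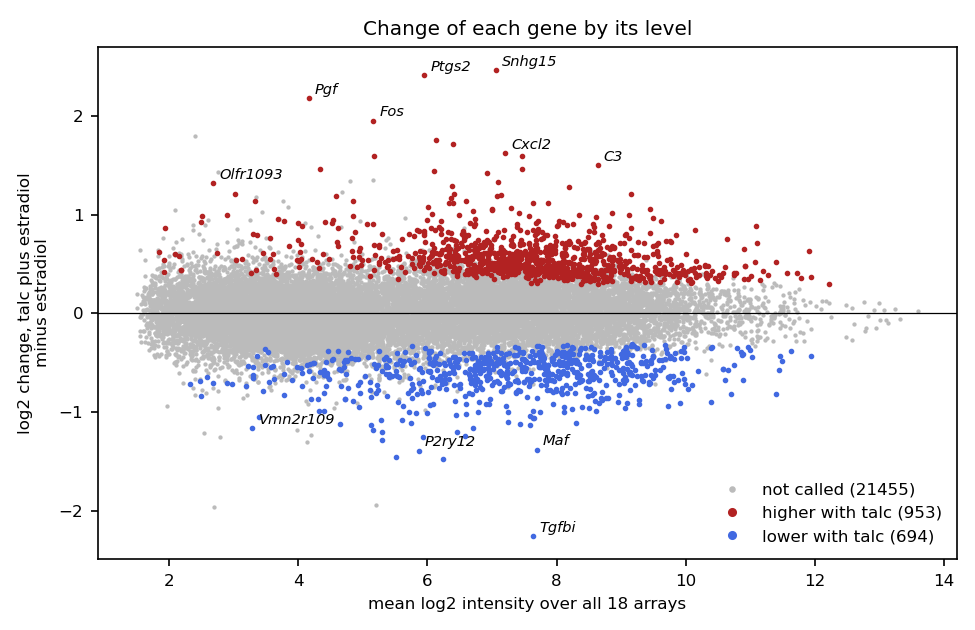
Log2 change of each of 23102 genes (vertical axis, talc plus estradiol minus estradiol) against its mean log2 intensity over all 18 arrays (horizontal axis). Called genes are coloured and selected genes labelled. The 953 higher and 694 lower calls lie mainly right of the median level, and Ptgs2, Snhg15 and Tgfbi lie farthest from 0 among called genes.

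The gene that rose most was Snhg15, a small nucleolar RNA host gene, a class of long RNAs whose introns carry snoRNAs. It read 8.70, 8.55 and 9.04 in the talc plus estradiol arrays, against 6.55, 6.04 and 6.32 in the estradiol arrays. The arrays were far apart, with a log2 change of 2.46 ± 0.18 (SE, adjusted p = 1.1e-06). Ptgs2, the inducible cyclooxygenase that starts prostaglandin synthesis, read 7.44, 7.35 and 7.39 in the talc plus estradiol arrays, against 4.66, 4.94 and 5.35 in the estradiol arrays. Every talc plus estradiol array exceeded every estradiol array by more than the spread within either group, and the log2 change was 2.41 ± 0.20 (SE, adjusted p = 3.9e-06). Pgf, placental growth factor of the VEGF family, read 5.57, 5.58 and 5.65 in the talc plus estradiol arrays, against 3.33, 3.50 and 3.43 in the estradiol arrays, with no overlap. Its log2 change was 2.18 ± 0.21 (SE, adjusted p = 2.0e-05), and all 7 of its probe sets were higher, but its brightest probe set alone changed by 1.39 and did not pass (adjusted p = 0.45).

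**Figure D2:**
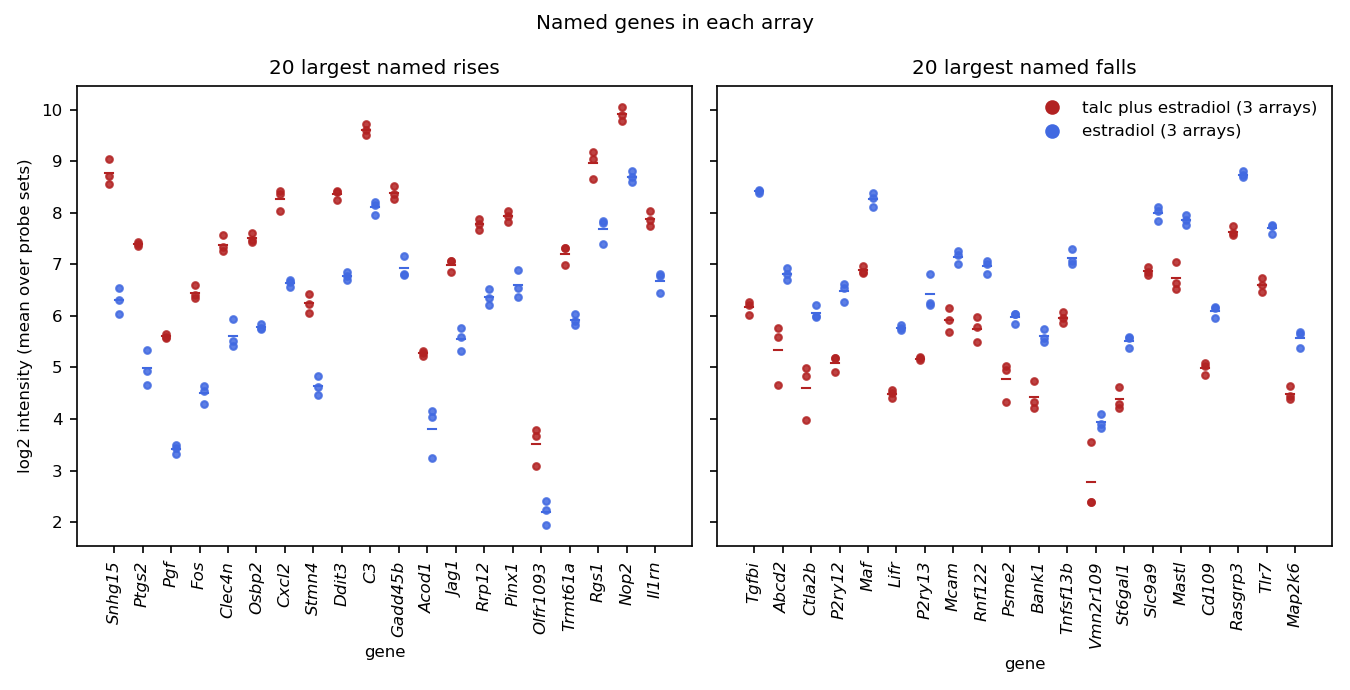
Log2 intensity of the 20 genes that rose most and the 20 that fell most, 1 point per array, for talc plus estradiol and for estradiol (3 arrays each). The genes were chosen among called genes whose arrays do not overlap, so the 2 sets of points are apart by that choice.

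Immediate early factors of the AP-1 and EGR families gave mostly rises. Of 26 measured, 10 rose, 1 fell and 15 did not pass, with a median change of 0.29 against -0.0037 over all genes. The rises numbered 5 without estradiol replicate 1, 6 without talc plus estradiol replicate 3, and 5 with the brightest probe set of each gene, where the median was 0.11. Fos, a subunit of the AP-1 transcription factor, read 6.35, 6.60 and 6.41 in the talc plus estradiol arrays, against 4.65, 4.55 and 4.29 in the estradiol arrays, and its log2 change was 1.96 ± 0.15 (SE, adjusted p = 1.7e-06). The other called members had smaller changes. Fosl2, a Fos relative, rose by 0.74, and Junb, its Jun partner, rose by 0.70. Junb read 8.69, 8.61 and 8.85 in the talc plus estradiol arrays, against 8.10, 8.0 and 7.92 in the estradiol arrays, with no overlap. Klf4, a Krüppel-like transcription factor, rose by 0.61 and Ier5, an early response regulator, by 0.60. Klf2, a Krüppel-like factor that restrains macrophage activation, was the one that fell, with a log2 change of -0.47 ± 0.11 (SE, adjusted p = 0.019). Egr1 read 5.26, 5.27 and 5.54 in the talc plus estradiol arrays, against 4.46, 4.96 and 4.97 in the estradiol arrays; its arrays were apart, but its change of 0.55 ± 0.17 (SE, adjusted p = 0.065) did not pass. Jun was bright and nearly level, with 10.11, 10.13 and 10.12 in the talc plus estradiol arrays, against 10.02, 10.01 and 10.06 in the estradiol arrays and a change of 0.09.

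The feedback phosphatases of MAP kinases moved in both directions. Dusp5 and Dusp1, nuclear phosphatases of ERK and of p38 and JNK, rose by 0.84 and 0.72, and Dusp4 by 0.53. Dusp6, the cytoplasmic phosphatase of ERK, fell with a log2 change of -0.60 ± 0.09 (SE, adjusted p = 3.7e-04). Map2k6, an upstream kinase of p38, read 4.44, 4.40 and 4.64 in the talc plus estradiol arrays, against 5.38, 5.68 and 5.66 in the estradiol arrays. It was lower in every talc plus estradiol array, with a log2 change of -1.08 ± 0.13 (SE, adjusted p = 1.1e-04). In all, 5 of 25 measured genes of this list rose and 3 fell.

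Chemokines that draw neutrophils and monocytes rose in part. Of 24 measured, 5 rose and none fell, beside 4.13% and 3% of all genes, and 13 of the 24 lay below the median level. With the brightest probe set 3 rose and 1 fell, and with the median of probe sets 2 rose. Without estradiol replicate 1, 4 rose and 1 fell. Cxcl2, a ligand of the neutrophil receptor Cxcr2, read 8.03, 8.36 and 8.41 in the talc plus estradiol arrays, against 6.66, 6.56 and 6.70 in the estradiol arrays, and its log2 change was 1.63 ± 0.13 (SE, adjusted p = 2.7e-06). Ccl7, a ligand of monocyte receptors, read 5.45, 5.65 and 5.75 in the talc plus estradiol arrays, against 4.48, 4.97 and 4.67 in the estradiol arrays, with a change of 0.91 ± 0.17 (SE, adjusted p = 0.0026). The brightest probe set of Ccl7 changed by 0.17 (adjusted p = 0.83). Averaged over probe sets, both were higher in each talc plus estradiol array than in any estradiol array. Ccl22 rose by 0.64, Ccl3 by 0.63 and Ccl9 by 0.39. Ccl2, the main monocyte chemokine, read 5.94, 5.95 and 6.69 in the talc plus estradiol arrays, against 4.79, 5.14 and 5.75 in the estradiol arrays; all 3 talc plus estradiol arrays were above, but the spread was wide and the change of 0.97 ± 0.33 (SE, adjusted p = 0.099) did not pass. Cxcl1 and Cxcl3, close relatives of Cxcl2, did not pass, with -0.12 and -0.37, and Cxcl3 lay at percentile 3.52 of all genes. Among receptors, Ccr1 rose by 0.96 and the atypical receptor Ccrl2 by 0.50, and Cxcr4, the receptor of Cxcl12, fell with a change of -0.63.

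Cytokine and cytokine receptor genes changed in both directions, and most did not pass. Of 20 measured genes of the IL-1 family and inflammasome, 3 rose and 3 fell. Of 27 TNF superfamily ligands and receptors 4 rose and 2 fell. Of 31 hematopoietic and gp130 cytokines and receptors 4 rose and 1 fell. The medians of these lists were -0.07, -0.01 and 0.04, and over all genes 4.13% rose and 3% fell. Tnf read 10.08, 9.95 and 10.06 in the talc plus estradiol arrays, against 9.22, 9.35 and 9.42 in the estradiol arrays, with a log2 change of 0.70 ± 0.13 (SE, adjusted p = 0.0023). Il1b read 4.91, 4.62 and 4.58 in the talc plus estradiol arrays, against 3.80, 3.73 and 3.92 in the estradiol arrays, a low level in both groups, and changed by 0.89 ± 0.18 (SE, adjusted p = 0.0062). The groups did not overlap for either cytokine. Il1rn, the secreted antagonist of the IL-1 receptor, rose by 1.20 ± 0.17 (SE, adjusted p = 3.6e-04), and Il1r2, the decoy receptor, fell with a log2 change of -0.94 ± 0.12 (SE, adjusted p = 1.2e-04). Pycard, the adaptor of inflammasomes, fell with a change of -0.59, and the sensor Nlrp3 did not pass, with 0.01. Osm, oncostatin M of the gp130 family, read 7.85, 7.56 and 7.87 in the talc plus estradiol arrays, against 6.69, 6.57 and 6.82 in the estradiol arrays, and Csf1, the growth factor of macrophages, read 6.54, 6.60 and 6.47 in the talc plus estradiol arrays, against 5.76, 5.26 and 5.74 in the estradiol arrays. Their log2 changes were 1.06 ± 0.11 (SE, adjusted p = 3.6e-05) and 0.94 ± 0.14 (SE, adjusted p = 6.3e-04). Lifr, a receptor subunit through which gp130 cytokines such as Lif act, fell with a log2 change of -1.28 ± 0.14 (SE, adjusted p = 5.5e-05) averaged over 22 probe sets, while its brightest probe set changed by 0.42. Tnfsf13b, the B cell survival factor BAFF, read 5.96, 6.08 and 5.86 in the talc plus estradiol arrays, against 7.07, 7.01 and 7.31 in the estradiol arrays, with a change of -1.16 ± 0.14 (SE, adjusted p = 8.8e-05). Il6 and Il1a were near the lower end of all genes and did not pass, with 0.10 and 0.10.

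NF-kB subunits and the feedback genes that NF-kB itself switches on rose in a majority of cases. Of 28 measured, 15 rose, none fell, and the median change was 0.50, with 26 of 28 changes positive. Traf1, a signaling adaptor, read 6.98, 7.0 and 6.97 in the talc plus estradiol arrays, against 5.74, 5.79 and 6.07 in the estradiol arrays, with a log2 change of 1.11 ± 0.11 (SE, adjusted p = 1.8e-05). Nfkbie, an inhibitor that holds NF-kB in the cytoplasm, rose by 0.90 ± 0.09 (SE, adjusted p = 3.4e-05). Nfkb2, the precursor of the p52 subunit, read 9.20, 9.06 and 9.07 in the talc plus estradiol arrays, against 8.30, 8.11 and 8.29 in the estradiol arrays, with a change of 0.88 ± 0.10 (SE, adjusted p = 6.3e-05). Its arrays were well apart between groups. Icam1, an adhesion molecule for leukocytes, rose by 0.72, and the mitochondrial dismutase Sod2 by 0.76. Chosen after their values were seen, the subunits Relb and Rela rose by 0.51 and 0.38, the inhibitor Nfkbia by 0.61 and the ubiquitin-editing enzyme gene Tnfaip3 by 0.77.

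The promoters of these genes were read for an NF-kB core, GGANTTTCC, on both strands, in the 250 bases before to 50 after the start in RefSeq (GRCm38.p6). Of 17713 genes with a promoter sequence, 1.55% held it, as did 2.15% of the genes called higher and 1.45% of those called lower. In the chemokine list 4 of 16 held it, namely Cxcl1, Cxcl2, Cxcl3 and Cxcl10, of which Cxcl2 alone was called. In the NF-kB list 6 of 24 held it, namely Cyld, Icam1, Nfkb2, Nfkbia, Tnfaip2 and Tnfaip3. The wider pattern GGANNTTCC, which contains the first, was in 5.04% of all promoters. The 250 bases before the start are shown for the called member of each list with the largest change that holds a match there, and the match is in capitals. They lie at chr5:90903649-90903898 on the plus strand for Cxcl2 and at chr19:46305680-46305929 on the plus strand for Nfkb2.
Cxcl2: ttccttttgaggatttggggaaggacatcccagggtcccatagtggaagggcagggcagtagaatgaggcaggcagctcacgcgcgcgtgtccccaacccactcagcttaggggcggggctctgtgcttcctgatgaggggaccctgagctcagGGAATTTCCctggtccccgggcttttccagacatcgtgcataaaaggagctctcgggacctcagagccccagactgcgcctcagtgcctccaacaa
Nfkb2: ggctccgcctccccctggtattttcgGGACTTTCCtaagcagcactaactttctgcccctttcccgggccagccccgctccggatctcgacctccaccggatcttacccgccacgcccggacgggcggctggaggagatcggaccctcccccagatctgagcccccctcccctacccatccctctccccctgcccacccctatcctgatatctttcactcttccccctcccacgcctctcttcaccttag
A match describes the letters only. The AP-1 pattern TGANTCA was in 8.37% of all promoters, in 6.19% of those of genes called higher, and in 0 of 20 promoters of the AP-1 and EGR list.

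The prostaglandin and leukotriene pathway split by enzyme. Of 27 measured members, 5 rose and 5 fell. The rises numbered 2 without talc plus estradiol replicate 3 and 3 without any other single array. Beside Ptgs2, the prostaglandin E synthase Ptges2 rose by 0.66, with -0.00 in its brightest probe set, and the receptor genes Ptger2 and Ptgir by 0.69 and 0.45. Ptgs1, the constitutive cyclooxygenase, read 8.91, 9.12 and 9.08 in the talc plus estradiol arrays, against 9.85, 9.75 and 9.66 in the estradiol arrays, with a log2 change of -0.72 ± 0.12 (SE, adjusted p = 0.0013). Alox5, which starts leukotriene synthesis, read 8.86, 8.74 and 8.71 in the talc plus estradiol arrays, against 9.54, 9.70 and 9.69 in the estradiol arrays, with -0.88 ± 0.10 (SE, adjusted p = 8.8e-05). Both were lower in every talc plus estradiol array. Hpgds, the prostaglandin D synthase of macrophages, fell with a change of -0.72, and Cysltr1, a leukotriene receptor, with -0.68. The inducible synthase Ptges did not pass, with 0.32.

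Receptors of the macrophage surface changed in both directions. The activating C-type lectins Clec4n (Dectin-2), Clec4d and Clec4e (Mincle), which sense microbial glycolipids and glycans, rose. Clec4n read 7.33, 7.25 and 7.56 in the talc plus estradiol arrays, against 5.51, 5.41 and 5.93 in the estradiol arrays, with a log2 change of 1.76 ± 0.21 (SE, adjusted p = 8.7e-05). Clec4d rose by 1.06 ± 0.10 (SE, adjusted p = 2.0e-05) and the bright Clec4e by 0.71 ± 0.09 (SE, adjusted p = 1.9e-04). The related Clec4a3 and Clec4a1 fell with changes of -0.68 and -0.56. Mrc1, the mannose receptor CD206, read 4.79, 5.17 and 4.99 in the talc plus estradiol arrays, against 5.78, 5.87 and 6.13 in the estradiol arrays, with -0.94 ± 0.14 (SE, adjusted p = 6.3e-04). All its talc plus estradiol arrays were below the estradiol arrays. Cd300lg, of the CD300 receptor family, fell with a change of -1.05, and the scavenger receptors Msr1, Marco and Cd36 did not pass, with 0.37, 0.31 and 0.00. Over the list of 35 scavenger, lectin and efferocytosis receptors, 4 rose and 7 fell. The falls numbered 3 without talc plus estradiol replicate 2, and 4 without replicate 1 or 3 of that group or estradiol replicate 3.

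Several sensors of nucleotides and nucleic acids fell. P2ry12 and P2ry13, neighbouring receptors for ADP, read lower in all 3 talc plus estradiol arrays. P2ry12 read 4.91, 5.18 and 5.17 in the talc plus estradiol arrays, against 6.61, 6.55 and 6.27 in the estradiol arrays, with a log2 change of -1.39 ± 0.19 (SE, adjusted p = 2.6e-04). P2ry13 read 5.15, 5.18 and 5.19 in the talc plus estradiol arrays, against 6.22, 6.25 and 6.81 in the estradiol arrays, with -1.26 ± 0.15 (SE, adjusted p = 1.0e-04). Entpd1 (CD39), which degrades extracellular ATP and ADP, also fell, with -0.58, and P2ry2, a receptor for ATP and UTP, rose by 0.74. Of 18 measured purinergic genes these were the 3 that fell and the 1 that rose. Tlr7, an endosomal sensor of single-stranded RNA, read 6.73, 6.46 and 6.60 in the talc plus estradiol arrays, against 7.77, 7.59 and 7.74 in the estradiol arrays, with -1.10 ± 0.12 (SE, adjusted p = 5.9e-05). Tlr8 fell with -0.77 and the flagellin receptor Tlr5 with -0.84. Tlr2 and Tlr4, the surface receptors for lipoproteins and endotoxin, did not pass, with 0.31 and 0.17, while the endotoxin coreceptor Cd14 rose by 0.37 and the adaptor Myd88 by 0.41. Of 25 measured Toll-like receptors and adaptors 3 rose, 3 fell and 19 did not pass, with a median change of 0.06. The rises numbered 0 without talc plus estradiol replicate 1 or with only the arrays compared, and 1 without replicate 2 or 3 of that group. Among 10 Fc receptor genes, Fcrls and the inhibitory Fcgr2b fell, with -0.60 and -0.57, and none rose. The brightest probe set of Fcrls changed by 0.05.

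Identity factors gave 4 rises and 4 falls among 27 measured genes. The rises numbered 0 without talc plus estradiol replicate 1, 1 without replicate 3 of that group or estradiol replicate 2, and 2 without estradiol replicate 1, and the falls 2 to 3 with 1 array left out. Maf, a transcription factor of resident macrophages, read 6.83, 6.96 and 6.86 in the talc plus estradiol arrays, against 8.29, 8.39 and 8.11 in the estradiol arrays, a clear separation with a log2 change of -1.38 ± 0.13 (SE, adjusted p = 2.0e-05). Cd33, an inhibitory receptor that binds sialic acid, fell with -0.90, and the integrin Itgam with -0.37. Cebpb and Irf5, transcription factors of inflammatory macrophages, rose by 0.71 and 0.55. Lyz1 rose by 0.55, but it has a near-identical copy, Lyz2, whose own change was 0.24, and probe sets may read both. Spi1 and Ptprc did not pass, with 0.21 and -0.25.

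C3, the central component of complement, was one of the largest rises at a high level. It read 9.71, 9.51 and 9.60 in the talc plus estradiol arrays, against 7.95, 8.20 and 8.15 in the estradiol arrays, with a log2 change of 1.51 ± 0.13 (SE, adjusted p = 4.0e-06), and 30 of its 31 probe sets were higher. Of 19 complement genes it was the only one to rise, and Itgam, which is also a complement receptor subunit, fell. Acod1, the enzyme that makes itaconate in activated macrophages, read 5.28, 5.21 and 5.33 in the talc plus estradiol arrays, against 3.25, 4.03 and 4.16 in the estradiol arrays, with 1.46 ± 0.19 (SE, adjusted p = 1.9e-04). The NADPH oxidase subunits Ncf1, Cybb and Ncf4 rose by 0.60, 0.43 and 0.41, and Nos2, the inducible nitric oxide synthase, did not pass, with 0.11. Costimulatory genes changed both ways, with 3 of 20 higher, among them Cd274 (PD-L1) by 0.59, and 4 lower, among them Cd244a with -1.02, or -0.12 in its brightest probe set (adjusted p = 0.86). The rises in this list numbered 0 to 2 with 1 array left out, and the falls 2 without talc plus estradiol replicate 3.

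Stress genes rose in selected branches. Ddit3 (CHOP), a transcription factor of the integrated stress response, read 8.24, 8.42 and 8.41 in the talc plus estradiol arrays, against 6.69, 6.76 and 6.84 in the estradiol arrays, with a log2 change of 1.59 ± 0.12 (SE, adjusted p = 1.1e-06). Ppp1r15a (GADD34), which brings a phosphatase to eIF2α, read 7.74, 7.82 and 7.99 in the talc plus estradiol arrays, against 6.68, 6.62 and 6.67 in the estradiol arrays, with 1.19 ± 0.11 (SE, adjusted p = 1.6e-05). No talc plus estradiol array of either gene fell within the range of estradiol, which the rule for the largest changes required of Ddit3. Atf4 itself did not pass, with 0.32 ± 0.10 (SE, adjusted p = 0.063). Trib3 rose by 0.40, the tRNA synthetases Wars and Aars by 0.68 and 0.39, and the amino acid transporter gene Slc7a5 fell with -0.51. In all, 7 of 30 members rose and 2 fell. The rises numbered 3 without talc plus estradiol replicate 3 or estradiol replicate 2, 4 without replicate 1 of either group, and 3 with only the arrays compared. Of 25 chaperones and unfolded protein response genes of the endoplasmic reticulum, none rose and 1, Pdia4, fell with -0.35, and Hspa5 (BiP) did not pass, with 0.21.

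The pattern TGATGNAA, a reading of the composite site bound by CHOP and ATF4, was in 3.83% of all promoters. Among genes called higher 3.16% held it, and among those called lower 3.62%. In the stress response list 9 of 26 promoters held it, but not those of Ddit3 and Ppp1r15a. It is shown in capitals for Aars, which among the called members with a match in the 250 bases before the start had the largest change, at chr8:111033592-111033841 on the plus strand.
Aars: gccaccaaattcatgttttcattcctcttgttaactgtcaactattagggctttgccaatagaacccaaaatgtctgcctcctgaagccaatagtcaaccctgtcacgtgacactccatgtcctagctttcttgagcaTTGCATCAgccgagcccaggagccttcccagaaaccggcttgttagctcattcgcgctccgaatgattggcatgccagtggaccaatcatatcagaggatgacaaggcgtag

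Calls in further stress lists were mostly rises. Of 23 heat shock genes 6 rose and none fell, led by Hsph1 with 0.75 and Hsf2 with 0.61. In the brightest probe sets Hsph1 changed by 0.42 (adjusted p = 0.39) and Hsf2 by 0.29 (adjusted p = 0.49), and 2 genes of the list rose with that summary. Without estradiol replicate 1 or 2 the rises numbered 3. The inducible Hspa1a stayed at percentile 5.2 of all genes. Of 31 NRF2 targets and antioxidant genes 8 rose and 1 fell. The rises numbered 5 without talc plus estradiol replicate 1 or 3 or estradiol replicate 1 or 3. Sqstm1, the autophagy receptor p62, rose by 0.65, Hmox1, which degrades heme, by 0.63, and Txnrd1 by 0.59. Hmox1 read 10.08, 10.01 and 9.85 in the talc plus estradiol arrays, against 9.30, 9.40 and 9.34 in the estradiol arrays. Its groups were apart, while Nqo1, a classical NRF2 target, read 3.35, 3.87 and 3.31 in the talc plus estradiol arrays, against 3.96, 3.75 and 3.66 in the estradiol arrays and its groups overlapped.

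Genes that p53 controls included rises of arrest and feedback genes. Of 26 measured, 7 rose and 2 fell. Mdm2, the ligase that degrades p53, read 9.20, 9.21 and 9.23 in the talc plus estradiol arrays, against 8.20, 8.31 and 8.38 in the estradiol arrays, with 0.91 ± 0.15 (SE, adjusted p = 0.0014). Cdkn1a (p21), an inhibitor of cyclin-dependent kinases, read 9.10, 9.25 and 9.46 in the talc plus estradiol arrays, against 8.40, 8.79 and 8.60 in the estradiol arrays, with 0.67 ± 0.14 (SE, adjusted p = 0.0077). For both the groups were apart. The stress-induced polo-like kinases Plk3 and Plk2 rose by 1.13 and 0.88, and Gadd45b, which binds stress kinases, rose by 1.46 ± 0.14 (SE, adjusted p = 2.0e-05). Ddb2 and Sesn1 fell, with -0.61 and -0.51.

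Genes of mitosis fell together. Of 43 measured, 38 fell, none rose, and the median log2 change was -0.68, with all 43 changes below 0. The mean over the list was 8.16 to 8.26 in the talc plus estradiol arrays and 8.85 to 8.89 in the estradiol arrays. In whole-culture RNA, fewer cells in division and less of these RNAs per cell cannot be told apart. Kif15, a kinesin of the spindle, read 7.30, 7.67 and 7.56 in the talc plus estradiol arrays, against 8.56, 8.56 and 8.41 in the estradiol arrays, with -1.0 ± 0.11 (SE, adjusted p = 6.1e-05). Ncaph, a subunit of the condensin that compacts chromosomes, read 8.15, 8.24 and 8.11 in the talc plus estradiol arrays, against 8.96, 9.12 and 8.99 in the estradiol arrays, with -0.85 ± 0.10 (SE, adjusted p = 8.9e-05). The arrays of neither gene overlapped between groups. Kif23, a kinesin of cytokinesis, fell with -0.90 ± 0.11 (SE, adjusted p = 9.7e-05), and Ccnb2, a B-type cyclin, with -0.72 ± 0.09 (SE, adjusted p = 9.7e-05). Over the list the changes ran from -1.0 to -0.19. Mastl, the Greatwall kinase that keeps phosphatases off during mitosis, read 6.53, 7.05 and 6.64 in the talc plus estradiol arrays, against 7.96, 7.87 and 7.77 in the estradiol arrays, with -1.12 ± 0.15 (SE, adjusted p = 2.5e-04).

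**Figure D3:**
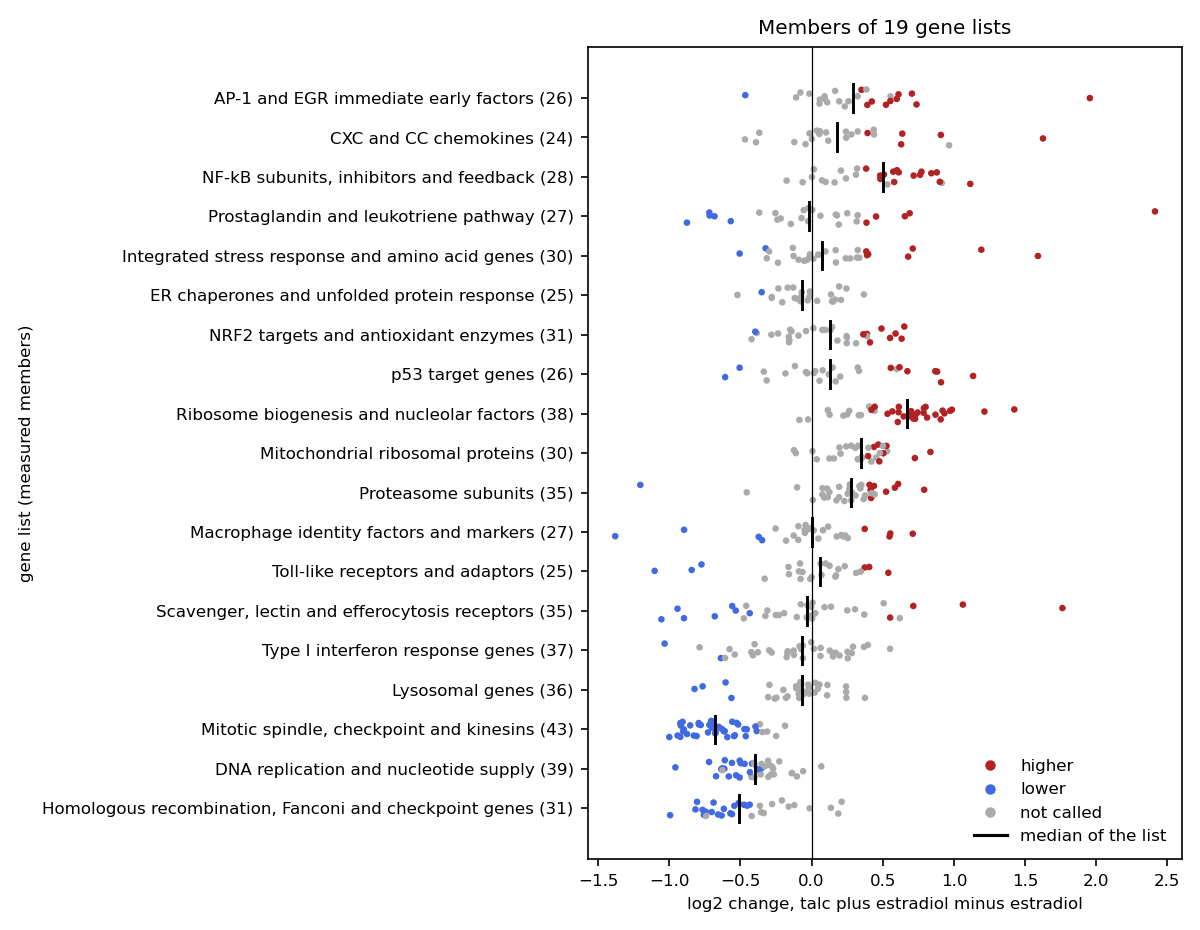
Log2 change (talc plus estradiol minus estradiol) of each measured member of selected gene lists, 1 point per gene, coloured where called (higher or lower) and grey where not. All 43 mitosis genes lie below 0, while 36 of 38 ribosome biogenesis genes and 26 of 28 NF-kB genes lie above it.

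Replication and repair genes fell in part. Of 39 replication and nucleotide supply genes, 18 fell and none rose, with a median of -0.40. With the median of probe sets 10 fell. Rrm2, the regulated subunit of ribonucleotide reductase, fell most, with -0.96 ± 0.12 (SE, adjusted p = 1.3e-04), and Pola1, the catalytic subunit of DNA polymerase alpha, had -0.72 ± 0.12 (SE, adjusted p = 0.0012). The helicase subunits Mcm2 to Mcm6 were all called lower, with Mcm6 at -0.67 and Mcm3 at -0.63. Of 31 genes of homologous recombination, the Fanconi pathway and checkpoints, 18 fell and none rose, with a median of -0.51 (9 falls with the median of probe sets). Brip1, a helicase that works with Brca1, read 6.56, 6.58 and 6.79 in the talc plus estradiol arrays, against 7.75, 7.58 and 7.57 in the estradiol arrays, with -0.99 ± 0.11 (SE, adjusted p = 7.5e-05), and Brca1 fell with -0.74. In the G1 and S phase list 10 of 28 fell and 2 rose. Without talc plus estradiol replicate 3 the falls numbered 6. Ccnd1 (cyclin D1) read 10.16, 10.20 and 10.21 in the talc plus estradiol arrays, against 10.93, 10.87 and 10.82 in the estradiol arrays, with -0.68 ± 0.09 (SE, adjusted p = 1.7e-04), and Ccne2 (cyclin E2) and E2f7, a repressor of the E2F family, fell with -0.68 and -0.89. The rises were Cdkn1a and Cdk6, the kinase partner of cyclin D, with 0.35. Myc did not pass, with 0.22.

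The promoters of the cell cycle lists were searched for the core of the cell cycle homology region, TTTGAA, and for an E2F-type pattern, TTTNNCGC, on both strands. TTTGAA was in 17.8% of all promoters, in 25.7% of those of genes called lower, in 12.4% of those called higher, and in 29 of 37 mitosis promoters (78.4%). TTTNNCGC was in 7.2% of all promoters and in 14 of 32 replication promoters (43.8%). These shares describe the lists, which hold known targets of both kinds of site. The called members with the largest change that hold a match are shown, Kif15 at chr9:122950831-122951080 on the plus strand with 2 matches of TTTGAA, and Pola1 at chrX:93632156-93632405 on the minus strand with 1 match of TTTNNCGC.
Kif15: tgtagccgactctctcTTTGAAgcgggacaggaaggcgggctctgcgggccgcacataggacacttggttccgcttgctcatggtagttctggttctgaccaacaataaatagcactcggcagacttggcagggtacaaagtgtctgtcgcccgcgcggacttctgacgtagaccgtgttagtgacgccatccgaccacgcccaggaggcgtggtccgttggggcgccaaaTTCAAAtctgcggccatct
Pola1: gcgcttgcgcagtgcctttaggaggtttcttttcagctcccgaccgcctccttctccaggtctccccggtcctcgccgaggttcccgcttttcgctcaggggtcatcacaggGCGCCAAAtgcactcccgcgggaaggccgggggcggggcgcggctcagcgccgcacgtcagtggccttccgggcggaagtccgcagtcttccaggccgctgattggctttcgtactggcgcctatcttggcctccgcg

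Ribosome biogenesis genes rose together. Of 38 measured nucleolar factors, 27 rose, none fell, and the median change was 0.67. The mean over the list was 8.34 to 8.48 in the talc plus estradiol arrays and 7.76 to 7.85 in the estradiol arrays. Rrp12, which exports preribosomes, read 7.78, 7.67 and 7.89 in the talc plus estradiol arrays, against 6.21, 6.34 and 6.52 in the estradiol arrays, with 1.42 ± 0.13 (SE, adjusted p = 7.1e-06). Nop2, a methyltransferase of ribosomal RNA, read 9.90, 9.79 and 10.05 in the talc plus estradiol arrays, against 8.60, 8.69 and 8.81 in the estradiol arrays, with 1.21 ± 0.10 (SE, adjusted p = 4.0e-06). Each had all probe sets higher, 27 for Rrp12 and 16 for Nop2, although the brightest probe set of Rrp12 changed by 0.29 and did not pass (adjusted p = 0.64). Utp4, of the complex that processes small subunit RNA, rose by 0.93, the helicase Ddx21 by 0.97, and the nucleolar protein gene Mybbp1a by 0.73. Pinx1, a nucleolar protein that binds telomerase, rose by 1.33 ± 0.17 (SE, adjusted p = 1.9e-04), and Trmt61a, a methyltransferase of transfer RNA, by 1.29 ± 0.16 (SE, adjusted p = 1.3e-04), or by 0.35 in its brightest probe set (adjusted p = 0.47). Among 20 snoRNA host genes, 4 rose and none fell: beside Snhg15 these were Snhg12 with 1.17, Snhg1 with 1.01 and Snhg17 with 0.69, whose brightest probe set changed by -0.05.

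The E-box CACGTG, which Myc and related factors bind, was in 9.21% of all promoters, in 14.8% of those of genes called higher and in 9 of 34 ribosome biogenesis promoters (26.5%). Nop2 is shown as the called member with the largest change that holds it, at chr6:125131633-125131882 on the plus strand.
Nop2: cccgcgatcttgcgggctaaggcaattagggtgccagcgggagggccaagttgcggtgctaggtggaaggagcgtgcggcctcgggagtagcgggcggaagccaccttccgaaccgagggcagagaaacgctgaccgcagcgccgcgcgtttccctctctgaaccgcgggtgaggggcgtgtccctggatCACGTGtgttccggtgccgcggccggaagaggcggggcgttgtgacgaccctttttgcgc

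Other protein synthesis and turnover lists rose in smaller part. Of 25 translation initiation factors 6 rose and none fell, led by Eif1a with 0.66, and 3 rose without talc plus estradiol replicate 3 or estradiol replicate 1. Of 30 mitochondrial ribosomal proteins 8 rose and none fell, led by Mrps18b with 0.83. Their rises numbered 2 without talc plus estradiol replicate 3 or estradiol replicate 2, 3 to 5 without talc plus estradiol replicate 1 or 2 or estradiol replicate 1, and 2 with only the arrays compared. Of 35 proteasome subunits 8 rose and 1 fell. The rises numbered 4 without talc plus estradiol replicate 3 or estradiol replicate 1 or 2, and 5 without talc plus estradiol replicate 2. Psmb5, a catalytic subunit, rose by 0.79 ± 0.10 (SE, adjusted p = 1.1e-04). Psme2, the activator subunit that interferon induces, was the one that fell, with 4.33, 4.94 and 5.03 in the talc plus estradiol arrays, against 5.85, 6.03 and 6.04 in the estradiol arrays. It was measured by 3 probe sets, 1 of which moved the other way, its brightest probe set changed by -0.39 (adjusted p = 0.69), and near-identical copies of the gene exist. Among 20 factors of cytokine mRNA decay 4 rose (2 without talc plus estradiol replicate 3 or estradiol replicate 2 or 3), led by Zfp36 (tristetraprolin), which read 8.69, 8.87 and 8.73 in the talc plus estradiol arrays, against 7.72, 7.63 and 7.58 in the estradiol arrays and changed by 1.12 ± 0.20 (SE, adjusted p = 0.0023).

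The largest fall was that of Tgfbi, a secreted matrix protein that TGF-beta induces and macrophages release. It read 6.21, 6.02 and 6.26 in the talc plus estradiol arrays, against 8.44, 8.38 and 8.43 in the estradiol arrays, with a log2 change of -2.25 ± 0.10 (SE, adjusted p = 2.1e-09), and 17 of its 18 probe sets were lower. The rest of the TGF-beta pathway list changed little: of 28, 2 rose, namely Skil by 0.91 and the receptor Acvrl1 by 0.42, and Tgfbi alone fell. Mcam, an adhesion molecule, read 6.14, 5.91 and 5.68 in the talc plus estradiol arrays, against 7.18, 7.01 and 7.26 in the estradiol arrays, with -1.24 ± 0.12 (SE, adjusted p = 2.0e-05). Among 35 matrix and protease genes 5 rose and 4 fell, beside 4.13% and 3% of all genes. The rises numbered 2 to 3 with 1 array left out, whichever it was. Plaur, the receptor of urokinase, rose by 0.72, its ligand Plau fell with -0.42, osteopontin (Spp1) rose by 0.48, and the gelatinase Mmp9 by 0.39. Of 25 growth factors Pdgfb rose by 0.75 beside Pgf, Hgf fell with -0.60, and Vegfa did not pass, with 0.28.

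Lipid genes gave large single changes, while most did not pass. Of 35 measured LXR targets, lipid droplet genes and PPAR targets, 4 rose, 2 fell and 29 did not pass, with a median change of -0.01. Osbp2, an oxysterol-binding protein, read 7.61, 7.44 and 7.46 in the talc plus estradiol arrays, against 5.74, 5.84 and 5.76 in the estradiol arrays, with 1.72 ± 0.09 (SE, adjusted p = 2.4e-08). Abcd2, a peroxisomal transporter of fatty acids, read 5.76, 5.58 and 4.65 in the talc plus estradiol arrays, against 6.69, 6.93 and 6.82 in the estradiol arrays, with -1.48 ± 0.27 (SE, adjusted p = 0.0026). Both genes had their groups apart, which the rule for the largest changes required. Hilpda, a lipid droplet protein, rose by 1.12 ± 0.13 (SE, adjusted p = 6.1e-05), the cholesterol exporter Abcg1 by 0.55, and Cpt1a, which admits fatty acids to mitochondria, fell with -0.59. Cholesterol synthesis genes moved little, with 1 of 20 lower, Insig1 with -0.41, and of 26 glycolysis and hypoxia genes only the glucose transporter Slc2a1 was called, with 0.34. Of 36 lysosomal genes 4 fell and none rose, led by the hydrolases Sgsh and Man2b1 with -0.82 and -0.77. Of 37 interferon response genes 2 fell, Epsti1 with -1.03 and Ifit2 with -0.64, and Cxcl10 did not pass, with 0.32. Over all genes 4.13% rose and 3% fell, and in the highest quartile by level 16.9% were called. The lysosomal genes had a median level at percentile 97.5.

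Several further genes among the 20 largest changes in each direction belong to no list. Stmn4, a microtubule regulator known from neurons, read 6.06, 6.23 and 6.43 in the talc plus estradiol arrays, against 4.47, 4.63 and 4.84 in the estradiol arrays, with 1.60 ± 0.16 (SE, adjusted p = 2.3e-05). Jag1, a ligand of Notch receptors, read 7.06, 6.85 and 7.07 in the talc plus estradiol arrays, against 5.76, 5.31 and 5.58 in the estradiol arrays, with 1.44 ± 0.19 (SE, adjusted p = 2.2e-04). Rgs1, which ends G protein signaling, rose by 1.28 ± 0.19 (SE, adjusted p = 4.1e-04). All 3 had their groups apart, which the rule for the largest changes required. Ctla2b, related to cysteine protease inhibitors and nearly identical to Ctla2a, read 3.98, 4.99 and 4.84 in the talc plus estradiol arrays, against 5.99, 6.21 and 5.97 in the estradiol arrays, with -1.46 ± 0.25 (SE, adjusted p = 0.0017). Bank1, an adaptor known from B cells, fell with -1.19 ± 0.19 (SE, adjusted p = 7.7e-04), the sialyltransferase St6gal1 with -1.13 ± 0.16 (SE, adjusted p = 3.4e-04), and Rasgrp3, an activator of Ras, with -1.11 ± 0.13 (SE, adjusted p = 9.5e-05). Rnf122, a ubiquitin ligase, fell with -1.20, the endosomal sodium-proton exchanger Slc9a9 with -1.13, and Cd109, a coreceptor that binds TGF-beta, with -1.11. The olfactory receptor Olfr1093 and the vomeronasal receptor Vmn2r109 were also called, with 1.32 and -1.16, and both were dim, at percentiles 7.65 and 16.5.

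Smaller changes often stood near the threshold. Of the 164 called genes named here, 129 were called whichever of the 6 arrays was left out, and 35 lost the call without at least 1. Among these, Itgam, Cdk6, Fcrls and Sesn1 lost it whichever array was left out, Ptges2, Ddb2, Cpt1a, Trib3, Vmn2r109, Myd88, Mmp9, Slc2a1 and Ifit2 without most of the 6, and Arnt, Tlr8, Cd14, Pdia4, Hgf, Rela and Cebpb without 4 of them. Hsf2, Klf2, Ptgir and Acvrl1 lost it without 3, Irf5, Insig1, Lyz1, Clec4a3, Clec4a1, Relb, Aars, Ccl9 and Ccrl2 without 2, and Cdkn1a and Slc7a5 without 1. The adjusted p in these fits reached from 0.051 for Cdkn1a to 0.18 for Cebpb and Ifit2. The brightest probe set also ended the call and moved the value by over 1.5 times for Lyz1 (0.21), Ncf1 (0.30), Txnrd1 (0.36), Rela (0.19), Arnt (0.20), Acvrl1 (0.26), Insig1 (-0.25), Sesn1 (-0.82) and Vmn2r109 (-2.31). With the median of the probe sets the same held for Traf1 (0.69, adjusted p = 0.10), Ncf1 (0.37), Cdk6 (0.23) and Ptgir (0.26).

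The study also exposed cells to talc without estradiol, which allows the difference between the talc effects with and without the hormone to be tested on arrays that the 2 comparisons do not share. For that difference no gene was called by limma, with 1460 genes (6.32%) at an unadjusted p under 0.05. Its median standard error was 0.213 log2 units. Talc without estradiol changed 1955 genes against vehicle (8.46%), 910 higher (3.94%) and 1045 lower (4.52%). Of the 20 largest rises with estradiol, 19 were also called higher without it, and of the 20 largest falls 17 were called lower. Over the 953 genes called higher with estradiol, the median change without it was 0.41, beside 0.53 with it. Over the 694 called lower it was -0.59, beside -0.57. Because the genes were chosen by their change with estradiol, that choice can enlarge 0.53 and -0.57. These medians therefore give no measure of a difference between the talc effects. The talc and vehicle arrays entered the choice of these genes only through the estimate of spread that all 18 arrays share.

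**Figure D4:**
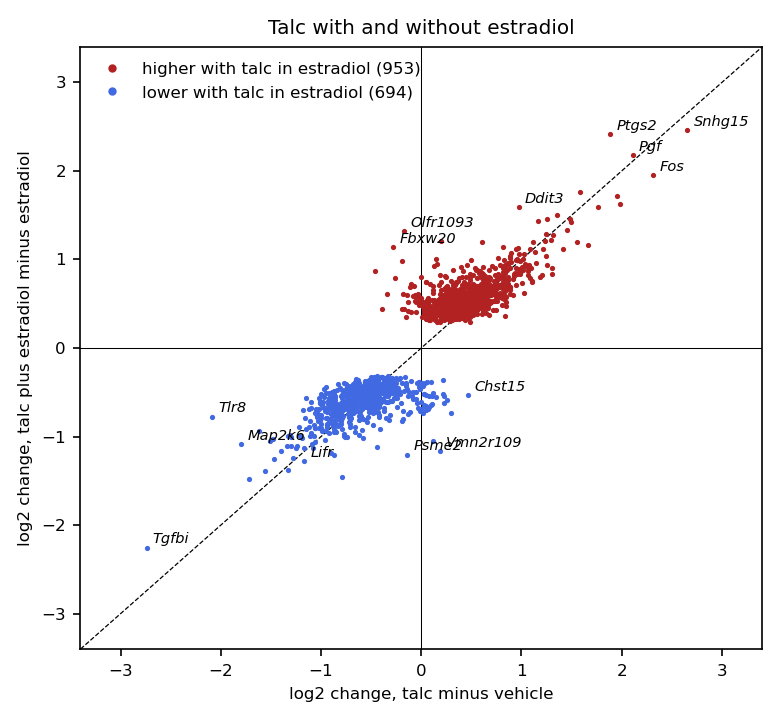
Log2 change of each gene called with talc in estradiol, for talc plus estradiol minus estradiol (vertical axis) against talc minus vehicle (horizontal axis), with the line of equal change. Snhg15 and Ptgs2 lie at the upper right and Tgfbi at the lower left, while Olfr1093 and Vmn2r109 lie near 0 on the horizontal axis.

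Single genes gave values on both sides of equality. Ptgs2 changed by 2.41 with estradiol and by 1.88 without it, a difference of 0.53 ± 0.28 (adjusted p = 0.82). Tgfbi changed by -2.25 with estradiol and by -2.74 without it, a difference of 0.49 ± 0.14 (adjusted p = 0.64). Ddit3 changed by 1.59 and 0.97, a difference of 0.62 ± 0.16 (adjusted p = 0.64). None of the 3 differences passed after adjustment. Mrc1 changed by -0.94 and -1.62, a difference of 0.68 ± 0.20 (adjusted p = 0.64), and Tlr8 by -0.77 and -2.09, a difference of 1.32 ± 0.27 (adjusted p = 0.63). The 3 genes with the smallest p for the difference were Chst15, Jsrp1 and Fbxw20. Chst15, a sulfotransferase of chondroitin sulfate, read 3.28, 3.21 and 3.50 in the talc plus estradiol arrays, against 3.82, 3.84 and 3.91 in the estradiol arrays, beside 4.15, 3.99 and 3.82 with talc and 3.52, 3.60 and 3.44 with vehicle, and its difference was -1.0 ± 0.16 (adjusted p = 0.24). In these arrays talc went with lower values where estradiol was present and with higher values where it was absent. All these readings were dim, below the median level of all genes at 4.73. The fall of Chst15 with talc in estradiol was not called by limma with the brightest probe set (-1.87, adjusted p = 0.057) or the median of probe sets (-0.50, adjusted p = 0.23). Jsrp1 and Fbxw20 had differences of -0.81 ± 0.16 (adjusted p = 0.63) and 1.42 ± 0.28 (adjusted p = 0.63).

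The lists followed the same directions in both talc comparisons where their medians were far from 0. Mitosis genes had a median of -0.68 with estradiol and -0.81 without it, where 39 of 43 fell. Replication genes had -0.40 and -0.54, where 25 of 39 fell. Ribosome biogenesis genes had 0.67 and 0.71, where 28 of 38 rose, and NF-kB genes 0.50 and 0.44, where 15 of 28 rose. The AP-1 and EGR list had 0.29 and 0.32. The integrated stress response list gave 7 rises and 2 falls with estradiol (3 rises when talc plus estradiol replicate 3 or estradiol replicate 2 was left out) and 3 rises and 7 falls without it, with medians of 0.07 and -0.04, and the interferon list 2 falls with estradiol and 8 without it, with medians of -0.07 and -0.21. Cholesterol synthesis genes gave 1 fall with estradiol and 6 without, and lysosomal genes 4 falls with and 10 falls and 3 rises without. No member of these lists was called in the test of the difference.

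TiO2 gives the comparison with another particle at the same dose by mass and with the same hormone. TiO2 plus estradiol against estradiol called 1 gene (0.00433%), with 2059 genes (8.91%) at an unadjusted p under 0.05. The gene, named after its values were seen, was D630033O11Rik, a long noncoding RNA with 3 probe sets, of which the values were 3.82, 3.98 and 3.88 in the TiO2 plus estradiol arrays, against 3.09, 3.10 and 2.94 in the estradiol arrays (log2 change 0.85, adjusted p = 0.039). Talc plus estradiol against TiO2 plus estradiol called 2201 genes (9.53%), of which 1539 were higher (6.66%) and 662 lower (2.87%). These comparisons share the estradiol or the talc plus estradiol arrays with the main one, and the upper quartile of intensity was 222.2 to 233.5 with TiO2 plus estradiol, below the 237.9 to 245.8 of the talc plus estradiol and estradiol arrays. With array medians subtracted the split was 2306 higher and 435 lower, and with quantile normalization 887 higher and 851 lower, so the balance of directions depends on scaling. The brightest probe set of each gene turned it, with 484 higher and 764 lower. Without talc plus estradiol replicates 1 and 3 in turn, the count was 1457 and 1221.

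For single genes the values of both particles stand side by side. Fos read 6.35, 6.60 and 6.41 in the talc plus estradiol arrays, against 4.51, 4.79 and 4.27 in the TiO2 plus estradiol arrays, a log2 difference of 1.93 ± 0.15 (adjusted p = 2.4e-06). Its change with TiO2 plus estradiol against estradiol was 0.03. Ptgs2 read 7.44, 7.35 and 7.39 in the talc plus estradiol arrays, against 5.67, 5.08 and 5.04 in the TiO2 plus estradiol arrays, a difference of 2.13 ± 0.20 (adjusted p = 1.2e-05). Tgfbi read 6.21, 6.02 and 6.26 in the talc plus estradiol arrays, against 8.17, 8.29 and 8.25 in the TiO2 plus estradiol arrays, a difference of -2.07 ± 0.10 (adjusted p = 8.1e-09). In each of the 3 the TiO2 arrays did not reach the range of the talc arrays. The smallest p of this comparison belonged to Tgfbi, Osbp2, Snhg15, Fos, Cxcl2, Osm, Ddit3, Ppp1r15a, Nop2 and C3. Snhg15 differed by 2.97 ± 0.18 (adjusted p = 7.5e-08), Osbp2 by 1.70 ± 0.09 (adjusted p = 3.0e-08) and C3 by 1.43 ± 0.13 (adjusted p = 6.3e-06). Psme2 changed by -1.20 with talc and by -0.93 with TiO2, both against estradiol.

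By list, mitosis genes were lower with talc than with TiO2 for 32 of 43, and their median change against estradiol was -0.68 with talc and -0.13 with TiO2. Ribosome biogenesis genes were higher for 30 of 38, with medians against estradiol of 0.67 with talc and -0.09 with TiO2. NF-kB genes were higher for 17 of 28, with medians of 0.50 and 0.03. The AP-1 and EGR list was higher for 10 of 26 and lower for 1, with medians of 0.29 and 0.00. Chemokines were higher for 5 of 24, and the replication list was lower for 17 of 39.

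**Figure D5:**
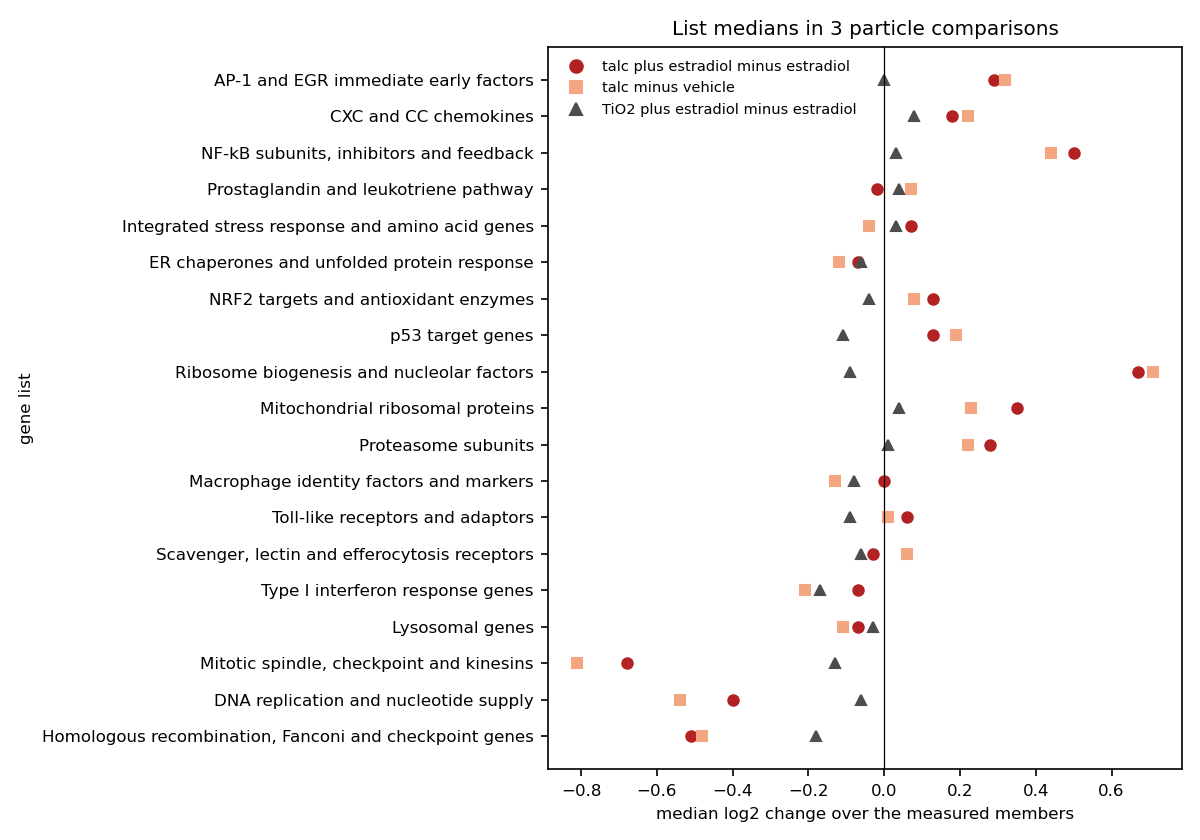
Median log2 change of the measured members of each gene list for talc plus estradiol against estradiol, talc against vehicle, and TiO2 plus estradiol against estradiol. The mitosis list lies at -0.68, -0.81 and -0.13 and the ribosome biogenesis list at 0.67, 0.71 and -0.09.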

How the data were processed

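The study's 18 Affymetrix arrays of J774 RNA fall into 6 labelled groups of 3. The deposited file holds linear intensity values per probe set, which the authors made with RMA, per the submitters' processing notes; its version, the level of summary and the step back from log2 are not given in the sources used here. Raw array files were not used here. Log2 was taken, and a gene was the mean of those probe sets annotated with that symbol alone (233753 of 269751, for 23102 genes, 2303 of them with 1 probe set); 5106 probe sets with several symbols and 30892 with none were left out. Gene names come from the platform annotation, with 2247 updated through RefSeq synonyms. A mean over probe sets averages exon-specific changes.

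Group means of all 18 arrays were modelled together in limma 3.58.1 (R 4.3.3, data.table package 1.17.8; 12 residual and 4.57 prior degrees of freedom). Calls are two-sided at p under 0.05 after Benjamini-Hochberg adjustment across all genes, and errors of changes are the model's standard errors, with 3 arrays a group. The fit was tested on simulated data. The groups, the members of the gene lists and the rule for named genes were chosen with earlier results of these data known, so lists are described by counts and medians without a test. Of 1274 listed members in 50 lists 1233 were measured, and some genes are in more than 1 list. Named genes are the 20 largest rises and falls among called genes whose arrays do not overlap, without predicted genes, clones, pseudogenes and small RNA genes (65 called genes were only counted), up to 5 members of a list by moderated t in each direction, list members that were not called, and the genes with the smallest p in the other comparisons. Promoter sequences are from RefSeq (GRCm38.p6), and 12 patterns were searched. Alternatives were other normalizations, filters, probe set summaries, variance settings, a model restricted to both groups, and the omission of each array.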

Additional observations from a re-analysis of the deposited data

Results flagged for a closer look

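Probe sets that entered no gene value also changed. Of the 30892 probe sets with no gene symbol, 49 were called in talc plus estradiol against estradiol, 20 higher and 29 lower (0.159%). Of the 5106 probe sets with several symbols, 45 were called, 19 higher and 26 lower (0.881%). In the same fit 0.867% of the 233753 probe sets with a single symbol were called. With 3 arrays a group, no test for outlying arrays was made.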

How the results depend on the processing

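The count of 1647 called genes became 2483 with only genes above the median level, 856 with the brightest probe set, 851 with the median of the probe sets and 988 with only the arrays compared, and 904 to 1231 with 1 array left out. It stayed within 1.5 times with quantile normalization (1585), array medians subtracted (1783), a trend and robust prior (2221) and array weights (2311). When each probe set was tested on its own, 2273 of 233753 probe sets were called, 989 higher and 1284 lower. That count is of probe sets and cannot be set against the 1647 of 23102 genes. The count of 74 called 2-fold genes became 150 with the brightest probe set, 137 with the median of the probe sets and 1089 probe sets when each was tested on its own, and was 78 to 89 with 1 array left out. For talc against TiO2 with estradiol, 2201 became 1248 with the brightest probe set, 1183 with the median of the probe sets and 812 with only the arrays compared. It was 1221 to 1738 with 1 array left out. Tested on their own, 4010 of 233753 probe sets were called in that comparison. The cause was not tested. The difference between the talc effects with and without estradiol had 0 calls under every setting run. With the brightest probe set, Lifr (0.42), Pdgfra (0.27), Fcrls (0.05), Ptges2 (-0.00) and Snhg17 (-0.05) turned their direction. Quantile normalization kept 156 of the 164 named calls, array medians subtracted 159, the brightest probe set 114 and the median of the probe sets 124. The median of the mitosis list ran from -0.76 to -0.63 with 32 to 41 falls, that of ribosome biogenesis from 0.49 to 0.72 with 19 to 30 rises, and that of NF-kB from 0.41 to 0.54 with 12 to 18 rises. Other lists moved more. The AP-1 and EGR median ran from 0.11 to 0.35 with 5 to 12 rises. The replication list had 10 to 23 falls and the recombination list 9 to 21. Rises numbered 2 to 12 for mitochondrial ribosomal proteins, 3 to 16 for the proteasome, 3 to 11 for translation initiation factors, 3 to 11 for the stress response, 2 to 8 for heat shock genes, 4 to 10 for NRF2 targets, 2 to 7 for chemokines and 1 to 6 for the prostaglandin pathway. No paired analysis was possible because replicates have no number of their own in the labels, which tie no array of a group to one of another.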

Other observations

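Gene families were also grouped by symbol after the values were seen, and some of their members are in the lists described above. They are given for talc plus estradiol against estradiol, in which 4.13% of all genes rose and 3% fell. Of 5 subunits and factors of RNA polymerase I, 3 rose (Polr1a, Polr1e and Polr1b), with a median log2 change of 0.44. Polr1a and Polr1b are also in the ribosome biogenesis list. Of 31 aminoacyl-tRNA synthetases 7 rose, namely Kars, Aars, Sars, Rars, Tars2, Yars2 and Wars, and none fell, with a median of 0.17. Aars and Wars are also in the stress response list. Of 10 subunits of the CCT chaperonin, which folds actin and tubulin, 4 rose (Cct3, Cct6a, Cct7 and Cct8), with a median of 0.28. Of 51 DEAD and DEAH helicases, which remodel RNA, 10 rose, among them Ddx21 of the ribosome biogenesis list, and 1, Ddx17, fell.

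Genes with Rpl or Rps symbols, mostly of cytosolic ribosomal proteins, gave 2 rises among 67, with a median of 0.08. These were Rpl34 and the Rpl7-like gene Rpl7l1. Of the ribosome biogenesis factors 27 of 38 rose. Complex I genes (46) and ATP synthase genes (17) had no call, and medians of 0.17 each. Among 48 histone genes 7 fell and none rose, with a median of -0.16, and among 20 centromere protein genes 10 fell, with a median of -0.46, Cenpe and Cenpf of the mitosis list included. Of 31 integrins 5 fell (Itga4, Itga8, Itgam, Itgav and Itgb5) and 1, Itga5, rose, of which Itgam, Itgav and Itga5 are in lists as well. Receptors of the nose are a low-level background on such arrays: of 1085 olfactory receptor genes 4 rose and 1 fell, and of 288 vomeronasal receptor genes 4 fell.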
